A study of Mus musculus with 2 samples.

Results

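The S100 genes of the mouse chromosome 3 cluster were described in eosinophils sorted from the naive colon. The members were the 10 genes S100a1, S100a3, S100a4, S100a5, S100a6, S100a8, S100a9, S100a10, S100a11 and S100a13, taken by symbol from a table of 23456 genes, and each had 1 row in it. Eosinophils are granulocytes that populate the healthy gut wall, and here they were isolated by flow cytometry from colons of untreated wild-type C57BL6 mice after enzymatic digestion. The data hold 1 group of 2 samples, each made into 3 technical libraries by CEL-Seq, which tags messenger RNA near its 3′ end. The sources used here do not give the age of the mice, their number or the sort gate. For each transcript the table holds a read total and an RPKM (reads per 1000000 reads and per kilobase of transcript), in 1 column each that names no sample. Every read total became whole at 6 times its value, so both columns were read here as means over the 6 libraries. That reading is inferred, values per sample were not analysed here, and no SD or test between samples is given.

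S100 proteins are small calcium sensors. Each carries a pair of EF-hand loops, works as a dimer, and exposes a binding face for partners such as annexins, cytoskeletal proteins and enzymes when calcium rises. Several are also released from cells and act as danger signals or, in the case of the S100A8 and S100A9 heterodimer calprotectin, withhold zinc and manganese from microbes. In granulocytes the family is best known from neutrophils, whose cytosol is rich in calprotectin.

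The family spanned the whole range of expression in these cells. S100a11, S100a6 and S100a10 were among the most abundant transcripts, S100a1, S100a9, S100a13 and S100a8 lay at intermediate levels, S100a4 and S100a5 were low, and S100a3 was listed at 0. An RPKM of 1 or more, the minimum used here to call a gene detected, was reached by 8 of the 10 genes, against 31.0% of all genes. Reads per 1000000 reads on genes (RPM) reached 1 for the same number of members, 8 of 10, against 50.9% of all genes. An RPKM of 100 was reached by 3 of the 10 and by 1.28% of all genes. The median over the 10 genes was an RPKM of 17.9, against 0.186 over all genes. By RPM, which does not divide by length, the medians were 22.4 and 1.04, a smaller gap. The 10 genes held 3.45% of the summed RPKM and 1.09% of the reads on genes, and S100a11 and S100a6 together supplied 89.2% of the members' summed RPKM.

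**Figure D1:**
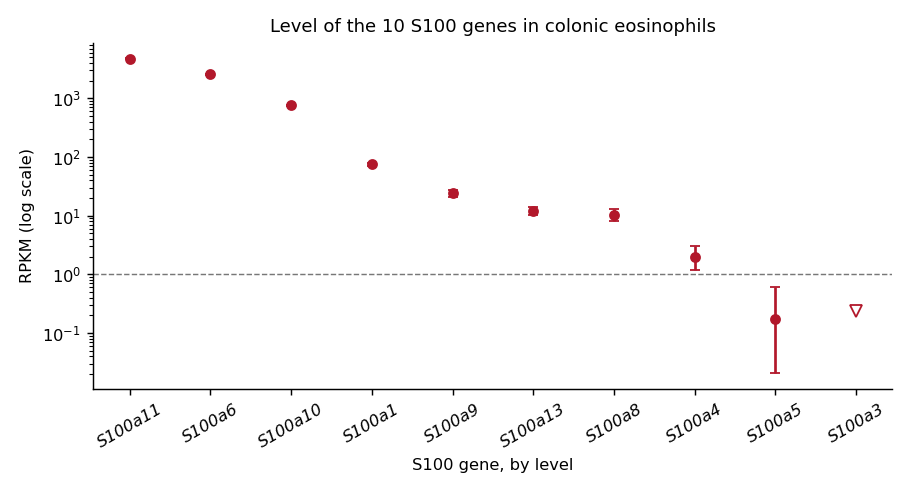
RPKM of the 10 S100 genes on a log axis, from the highest to the lowest. Points are the authors' means over the 6 libraries, bars are exact 95% Poisson intervals of the reads (counting error only), and the dashed line marks an RPKM of 1. The open triangle, at 0.240, is the level that 3 reads would give for S100a3, listed at 0. An exact 95% Poisson interval for 0 reads, as used for the bars, reaches higher, to 3.69 reads. The intervals of neighbours overlap for S100a13 and S100a8 and do not for the others above 0.

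The most abundant member was S100a11, which binds annexin A1 and takes part in membrane repair and growth control. It had an RPKM of 4745 (95% exact Poisson interval 4699 to 4792) from 40150 reads over the 6 libraries and ranked 6 among all genes. Intervals here and below cover counting error only, and amplified copies of 1 molecule count as separate reads, since the labels name no molecular identifiers. S100a11 (NM_016740) lies on the plus strand of chromosome 3 from 93520496 to 93526288 in mm10. Of the 35-base words in its last 500 transcript bases, 48.5% also occur in 5 other annotated genes, all processed pseudogenes, and Gm12854 alone holds 46.8%. How reads with several alignments were treated is not given, so the level of S100a11 could be too low or too high.

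S100a6, also called calcyclin, partners the ubiquitin ligase component Cacybp and is linked to proliferating and stressed cells. It had an RPKM of 2574 (2547 to 2601) from 34262 reads and ranked 11, and it lies on the plus strand from 90612894 to 90614414. S100a11 exceeded it 1.84-fold on RPKM (1.82 to 1.87) and 1.17-fold by reads (1.16 to 1.19). RPKM divides by transcript length, 504 bases for S100a11 and 719 for S100a6, although CEL-Seq tags 1 end of a transcript whatever its length, and the gap between these genes is wider on RPKM than in reads. No 35-base word of S100a6 was found in another gene.

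S100a10, also called p11, is the family member that does not bind calcium. It forms a tetramer with annexin A2 that carries membrane proteins to the cell surface and binds plasminogen. Its RPKM was 762 (746 to 779) from 7916 reads, with rank 31, and S100a6 exceeded it 3.38-fold (3.30 to 3.46). It lies on the plus strand from 93555117 to 93564645. S100a10 shared 0.215% of its words with 1 processed pseudogene.

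Below these 3 genes the level dropped by about an order of magnitude. S100a1, best known from heart and skeletal muscle, where it regulates calcium release channels, had an RPKM of 75.7 (71.2 to 80.5) from 1044 reads and ranked 390. S100a10 exceeded it 10.1-fold (9.44 to 10.7). S100a13, which takes part in the unconventional export of growth factors and interleukin-1 alpha, had an RPKM of 11.9 (10.1 to 13.9) from 153 reads. S100a1 (90511034 to 90514330, minus strand) and S100a13 (90514435 to 90524581, plus strand) are transcribed away from each other with 104 bases between their starts in the table. S100a1 exceeded its neighbour 6.36-fold on RPKM (5.37 to 7.59) and 6.82-fold by reads (5.75 to 8.14).

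The calprotectin genes S100a9 and S100a8 were present at modest levels. S100a9 had an RPKM of 23.9 (20.6 to 27.5) from 191 reads and ranked 1077, on the minus strand from 90692633 to 90695691. S100a8 had an RPKM of 10.2 (7.98 to 12.9) from 70 reads and ranked 2016, on the plus strand from 90669071 to 90670034. The level of S100a8 was 0.429 times that of S100a9 on RPKM (0.321 to 0.567) and 0.366 times by reads (0.275 to 0.484). Compared with S100a13, S100a9 was 2.01-fold higher on RPKM (1.61 to 2.50) but 1.25-fold by reads (1.00 to 1.55), and S100a8 could not be told from S100a13 on RPKM, where the ratio of S100a13 to S100a8 was 1.16 (0.870 to 1.56). By reads that ratio was 2.19 (1.64 to 2.94).

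S100a4, a partner of non-muscle myosin IIA that promotes cell motility and is used as a marker of fibroblasts and some myeloid cells, had an RPKM of 1.98 (1.21 to 3.05) from 20 reads. It lies on the plus strand from 90603770 to 90606045, 2476 bases before S100a5, and is followed, after S100a5, by S100a6, whose RPKM was 1302 times as high (843 to 2132). Of the searched words of S100a4, 57.8% also occur in the annotated gene Gm42674, which runs on the same strand from 90601904 to 90605885 across both S100a3 and S100a4. Gm42674 has no value of its own here, so reads from its transcripts could have counted toward S100a4, and the source of the S100a4 reads is uncertain. S100a3 shares 16.7% of its words with the same gene. How reads on overlapping genes were counted is not given. S100a5, known from olfactory neurons, had 2 reads, which gave an RPKM of 0.170 (0.0206 to 0.614). S100a3, known from the hair cuticle, was listed at 0, and an upper limit of 3 reads at the summed depth corresponds to an RPKM of 0.240.

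Promoter windows are shown for the 2 highest members, for the low S100a4 and for S100a8 and S100a9, which lay at intermediate levels. These windows set genes of very different level beside each other. Each is the 250 bases before the RefSeq start (GRCm38.p6, the assembly of mm10), 5′ to 3′ on the gene's strand, which is chr3:93520246-93520495 (plus) for S100a11, chr3:90612644-90612893 (plus) for S100a6, chr3:90603520-90603769 (plus) for S100a4, chr3:90668821-90669070 (plus) for S100a8 and chr3:90695722-90695971 (minus) for S100a9. Capitals mark matches on either strand to 5 motifs, the TATA box TATAAA, the AP-1 motif TGANTCA, the C/EBP motif TTNCNNAA, the PU.1 core GAGGAA and the GC box GGGCGG.
S100a11: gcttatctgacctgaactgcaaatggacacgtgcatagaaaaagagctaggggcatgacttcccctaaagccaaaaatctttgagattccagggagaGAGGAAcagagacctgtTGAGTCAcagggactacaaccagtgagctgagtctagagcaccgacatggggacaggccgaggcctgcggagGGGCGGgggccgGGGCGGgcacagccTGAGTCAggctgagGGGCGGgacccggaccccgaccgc
S100a6: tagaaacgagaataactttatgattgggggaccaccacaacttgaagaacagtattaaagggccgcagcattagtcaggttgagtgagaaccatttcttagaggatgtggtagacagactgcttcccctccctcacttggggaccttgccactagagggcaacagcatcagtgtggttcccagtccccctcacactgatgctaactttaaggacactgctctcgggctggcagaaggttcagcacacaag
S100a4: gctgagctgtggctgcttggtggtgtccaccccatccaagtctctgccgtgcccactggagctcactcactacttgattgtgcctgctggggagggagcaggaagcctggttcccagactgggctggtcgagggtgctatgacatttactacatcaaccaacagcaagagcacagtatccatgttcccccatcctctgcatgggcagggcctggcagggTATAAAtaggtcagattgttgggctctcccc
S100a8: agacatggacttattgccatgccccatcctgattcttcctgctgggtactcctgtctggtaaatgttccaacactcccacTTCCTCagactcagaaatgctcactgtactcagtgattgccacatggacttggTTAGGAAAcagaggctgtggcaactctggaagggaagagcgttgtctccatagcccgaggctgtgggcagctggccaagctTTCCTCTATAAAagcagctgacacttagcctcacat
S100a9: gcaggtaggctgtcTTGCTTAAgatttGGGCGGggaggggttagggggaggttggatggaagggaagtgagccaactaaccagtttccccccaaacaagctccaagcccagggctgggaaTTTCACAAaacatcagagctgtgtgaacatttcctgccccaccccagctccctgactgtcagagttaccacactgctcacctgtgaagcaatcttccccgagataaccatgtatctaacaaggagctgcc

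No motif was found in all 5 windows. S100a11 held 2 AP-1 matches, at bases 136 to 130 and 38 to 32 before the start, 3 GC boxes and 1 PU.1 core, and no TATA box. S100a6 held none of the 5 motifs, and neither did the windows of S100a1, S100a13 and S100a5, which are not shown. S100a3, also not shown, has several RefSeq starts. Its window 1 base from the start in the table held 1 C/EBP match and 1 GC box. Windows before its other starts held 1 C/EBP match, or a TATA box and 2 PU.1 cores, or no motif. S100a4 held a TATA box at bases 31 to 26 before the start. S100a8 held a TATA box at bases 30 to 25, 1 C/EBP match and 2 PU.1 cores, of which the nearer adjoins the TATA box and the 2 form 1 run of capitals. S100a9, whose RefSeq start lies 30 bases outside the start in the table, held 2 C/EBP matches and 1 GC box. Of 32851 promoter windows of the same length, 12.4% held the TATA box, 6.75% the AP-1 motif, 36.8% the C/EBP motif, 23.3% the PU.1 core and 32.7% the GC box. These are matches of letters and not binding sites. Windows were matched for 9 of the 10 genes, all but S100a10.

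The 10 genes form a pair of blocks on chromosome 3. The first block, 184.7 kb from S100a1 to S100a9, holds 8 members, and the second, 44.2 kb long and 2824.8 kb away, holds S100a11 and S100a10. Both genes of the second block were among the 3 highest members, whereas the first block ranged from S100a6 at 2574 to S100a3, listed at 0. Within the first block, S100a3, S100a4, S100a5 and S100a6 follow each other on the plus strand, with gaps of 1067, 2476 and 1113 bases, and their RPKM values in that order were 0, 1.98, 0.170 and 2574. Genes less than 3 kb apart thus stood at opposite ends of the family's range. The coding sequences of the members shared 52.6% to 68.9% of aligned bases over 45 pairs, with a median of 60.2%. S100a4 and S100a6 had the highest share and differed 1302-fold, with an uncertain source of the S100a4 reads. Other pairs were nearly as alike. S100a10 and S100a13 shared 68.5%, and S100a4 and S100a5, which differed 11.6-fold (2.83 to 103), shared 68.4%. The coding sequence used for S100a13 was the longest, at 483 bases.

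**Figure D2:**
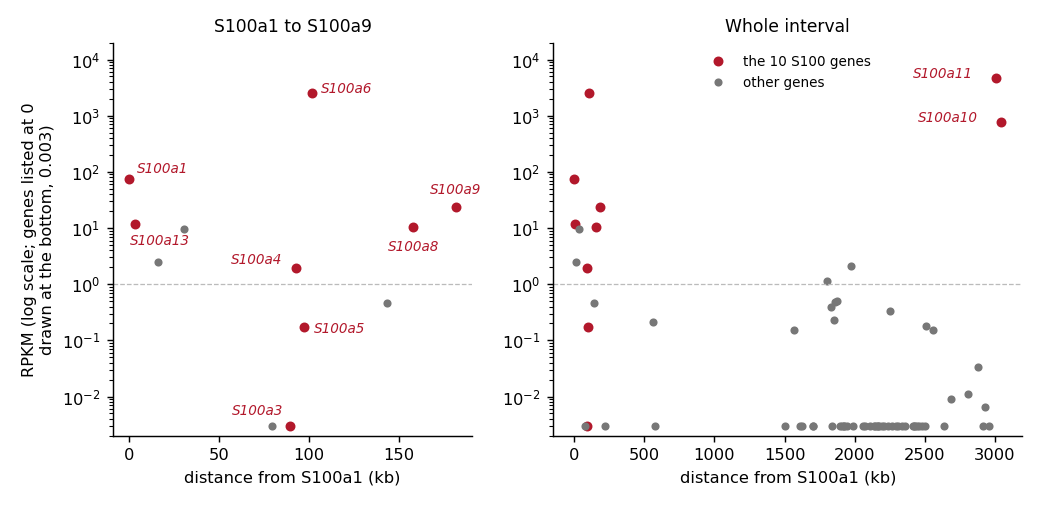
RPKM on a log axis against distance from S100a1 in kb, for the first block on the left and the whole interval on the right. The 10 S100 genes are red and other genes grey, genes listed at 0 are drawn at 0.003, and the dashed line marks an RPKM of 1. S100a6 stands at 2574 beside S100a3, S100a4 and S100a5, and S100a11 and S100a10 stand alone at the far end.

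Other S100 genes lie within and outside the cluster. Of 8 that the table and the list hold beyond the members, 4 were at an RPKM of 1 or above, against 31.0% of all genes. The median of the 8 was 1.28. S100pbp, which encodes a binding protein of S100P and stands in the same list, had 1.04. On RPKM all 8 were below the 7 highest members, but the interval of S100a16 (8.50 to 11.1) overlapped those of S100a8 and S100a13. By reads S100a16, with 216 (188 to 247), exceeded S100a9, S100a13 and S100a8. Its interval in reads overlapped that of S100a9, at 191 (165 to 220). S100a16 and S100a14, which are expressed in epithelia and lie in the first block, had RPKM values of 9.76 and 2.51. S100g, the intestinal calcium carrier calbindin-D9k, had 2.88 and S100z 2.10. S100a2 and S100a7l2 were listed at 0. The fused-type S100 genes, large epidermal proteins whose first part resembles an S100 protein, were nearly silent, with 0 of 6 at an RPKM of 1 and Rptn highest at 0.0338 from 4 reads.

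The partner genes were then set beside the members. Of 13 genes for annexin, cytoskeletal and scaffold partners, 12 were at an RPKM of 1 or above, against 31.0% of all genes. Their median was 18.7, against 0.186 over all genes. Actb had 1788.5, Anxa6 439, Tpm3, a tropomyosin, 143 and Anxa2 53.2 (50.3 to 56.2). S100a10 thus exceeded the gene of its annexin A2 partner 14.3-fold on RPKM (13.5 to 15.2) and 6.36-fold by reads (5.99 to 6.76). Anxa1, the partner of S100a11, had an RPKM of 21.2 (19.4 to 23.2), and S100a11 exceeded it 224-fold (205 to 245), or 80.3-fold by reads (73.5 to 87.9). S100a4, at 1.98, stood beside Myh9, the myosin heavy chain bound by S100A4, at 48.5, and S100a6, at 2574, beside Cacybp, the partner of S100A6, at 18.7. Anxa11, at 0.0160 from 1 read, was the member of the list below an RPKM of 1. Anxa1, Myh9, Cacybp and Anxa11 were picked outside the naming rule, with their values already seen.

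Genes for receptors of released S100 proteins were lower: 5 of 9 were detected at an RPKM of 1, against 31.0% of all genes. Their median was 1.16. Bsg, the membrane protein basigin that binds S100A9, had 37.8 and Ly96, the co-receptor of TLR4, 21.1. Fpr2, a formyl peptide receptor, had 3.11 and Cd33 1.49. Ager, the receptor for advanced glycation end products, had 1.16 (0.726 to 1.75). Tlr4 itself had 0.0406 (0.00837 to 0.119) from 3 reads. Ager and Tlr4 were also picked with their values seen.

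Other EF-hand genes were abundant alongside the S100 genes. Of these, 11 of 12 were at an RPKM of 1 or above, against 31.0% of all genes. Their median was 46.2. Among them Calm2, which encodes a calcium sensor, had an RPKM of 1076, the actin bundler Lcp1 303 and the integrin-binding Cib1 125. S100a11 and S100a6 were above all 12 on RPKM and by reads. S100a10 was above all but Calm2 on RPKM, whereas its 7916 reads were fewer than the 22280 of Calm2 and the 21335 of Lcp1.

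**Figure D3:**
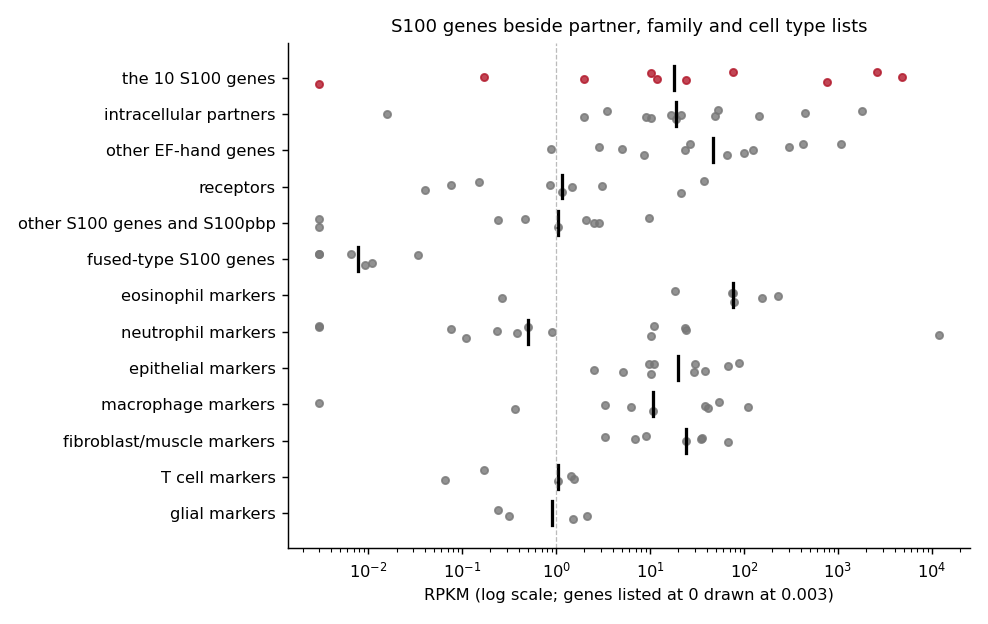
RPKM on a log axis for the 10 S100 genes (red) and for the partner, family and cell type lists (grey), 1 point per gene, with a black bar at each median and genes listed at 0 drawn at 0.003. The S100 genes run from the bottom of the axis to 4745, around a median of 17.9. Retnlg, at 11986, stands apart from the other neutrophil markers, whose list has a median of 0.507.

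The sorted samples also held markers of other cells in which S100 genes are known. In such bulk samples, fewer cells of a type and less RNA per cell cannot be told apart. Of 7 eosinophil markers, 6 were at an RPKM of 1 or above, around a median of 75.6, and Alox15, Ccr3, Siglecf and Il1rl1 had 230, 155, 77.9 and 75.6, whereas the granule peroxidase gene Epx had 0.265 from 11 reads, a gene picked with its value seen. Of 13 neutrophil markers, 5 reached an RPKM of 1, against 31.0% of all genes, and S100a9 and S100a8 are 2 of those 5. The others were Retnlg at 11986, Mmp9 at 23.5 and Lcn2 at 11.1. Mpo and Elane, genes of primary granule proteins, were listed at 0. Cxcr2 had 0.507 from 23 reads and Csf3r 0.110 from 9 reads, both picked with their values seen. The part of neutrophil RNA in the levels of S100a8 and S100a9 was not tested.

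All 10 epithelial markers were at an RPKM of 1 or above, around a median of 19.9 and with Epcam highest at 89.3, and S100a16 and S100a14 are 2 of the 10. So were 7 of 9 macrophage and monocyte markers, with a median of 10.7 and Mertk listed at 0, and all 7 fibroblast and muscle markers, with a median of 23.8. T cell markers had 3 of 5, against 31.0% of all genes at that level, and a median of 1.06. Glial markers had 2 of 4 and a median of 0.905, with the glial S100b at 0.242. The part of these cells in the levels of S100a11, S100a6, S100a10, S100a1 and S100a13 was not tested.

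The deposited means still carry a trace of how reads were spread over the libraries. RPKM was taken as averaged after each library had been divided by its own depth, so the ratio of reads to RPKM shows whether a gene's reads came more from deep or from shallow libraries. Transcripts with a single read gave depths of 1892486, 2070937, 2100580, 2396563, 4343108 and 4752358 reads. Which sample each library came from was not worked out. The 2 deepest held 51.8% of the summed depth.

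With transcript lengths adjusted to the ends in the table, the 2 deepest libraries held at least 72.3% and at most 87.5% of S100a1 reads, so its level per 1000000 reads was 2.43 to 6.49 times as high there as in the other 4. Of S100a10 reads they held 20.2% to 51.3%, which puts its level there at 0.235 to 0.978 times that in the others. The upper end for S100a10 lies close to the 51.8% of depth, and these ranges carry no counting error. With annotated lengths not adjusted, a choice made after seeing the data, the range was 59.3% to 78.4% for S100a1, a level 1.36 to 3.38 times as high, and 10.4% to 44.5% for S100a10, a level 0.108 to 0.745 times that in the others. The ranges of S100a1 and S100a10 do not overlap with either length. With adjusted lengths, the ratio of reads to RPKM and length, an average depth weighted by a gene's reads, was higher for S100a1 than for 97.8% of 4985 genes with 100 reads or more and a value within the range of the library depths, and higher for S100a10 than for 10.7% of them. For S100a11, S100a6, S100a9, S100a13 and S100a8 the possible ranges included 51.8% with adjusted lengths. With lengths not adjusted, the highest share was 34.2% for S100a8 and 46.7% for S100a9, both below 51.8%. Whether these 2 genes can be placed on a side of 51.8% thus depends on the length used.

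For members with few reads the spread was reconstructed in whole reads, and these counts are inferred. With the adjusted length, 1 placement of the 20 reads of S100a4 gave the deposited mean, with 0, 1, 1, 5, 7 and 6 reads from the shallowest to the deepest library. In it the 2 deepest libraries held 13 of the 20, or 65%, against 51.8% of the depth, and the 3 deepest held 18, against 65.5% of the depth. S100a4 then had no read in the shallowest library and 1 in each of the next 2. With 20 reads the counting error is wide, and a difference from the shares of depth was not tested. The 2 reads of S100a5 were placed in the 2 deepest libraries, 1 each. None of 50 other transcript lengths, within 25 bases of the one used, gave any placement for either gene.

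**Figure D4:**
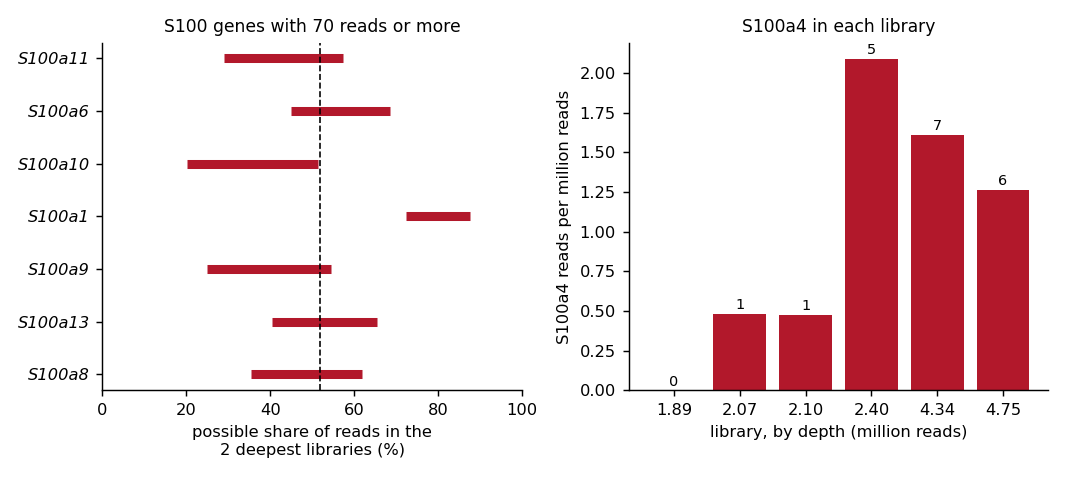
Left, the possible share of each gene's reads in the 2 deepest libraries, in percent, for members with 70 reads or more; the dashed line is the 51.8% of depth that these libraries hold. Lengths are adjusted to the table. Right, reconstructed S100a4 reads per 1000000 reads in each of the 6 libraries by depth, with the number of reads above each bar. S100a1 lies wholly above the line, S100a10 below it with an upper end of 51.3%, and 13 of 20 S100a4 reads lie in the 2 deepest libraries. The ranges carry no counting error.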

How the data were processed

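Per the labels' protocols, Trizol RNA went into CEL-Seq libraries, prepared with separate primer pools. The submitters' processing notes name STAR 2.4.2a, DESeq and mm10; the sources used here do not give the counter, strand use or the treatment of multiply aligned reads. The deposited signal column, which names no sample, was read as a mean read total, since 6 times it was whole within 0.0001 for 100% of 31295 rows. The deposited RPKM was computed by the authors, in a column that names no sample either. There were 0 columns of other samples.

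The row with the most reads was kept per gene, under current RefSeq symbols. Depth summed to 17556032 reads, of which 43.8% lay on the genes. Lengths came from GENCODE M21, adjusted to the ends in the table, and 82.7% of 1355 single-read transcripts then matched 1 of 6 depths to 6 digits. The shares in the 2 deepest libraries are all values that such depths and the deposited mean allow. Reads were placed by searching all placements whose 6-digit values give the deposited mean, and a placement is given only where it was unique and at most 2 of 50 other lengths gave one. The placement of reads was tested on simulated data, where it was not unique for every gene at the S100a4 read count and less often so with more reads.

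No comparison between groups exists, so no test was run. Intervals at 95% are exact Poisson, and for ratios exact Clopper-Pearson intervals of the share of reads; a count of 0 was given a limit of 3 reads. Depths differ between libraries, so intervals on RPKM are approximate. The rule named all members and the 4 highest genes of each list; lists of cell types other than eosinophils and neutrophils, and the fused-type list, are given mainly as counts. One gene that the rule takes is not reported here. S100a12, S100a15, S100p, Flg and Ly6g of the lists were not matched. The members and lists were chosen with earlier results of these data known. Tools were Python 3.11.15, numpy 2.4.6, pandas 2.3.3, scipy 1.17.1, Biopython 1.88 and matplotlib 3.10.9. Alternatives were other detection minimums, RPM, rescaled RPKM, another row per gene and leaving out ribosomal protein genes.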

Additional observations from a re-analysis of the deposited data

How the results depend on the processing

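Of 47 values recomputed under an alternative, 34 stayed within their counting error, their limit or, for counts, 1.5 times, and 13 moved. Each member had 1 row, so another choice of row could not change its level or the median of the members. The ratio of S100a8 to S100a9 by RPM and by reads is the same calculation. These values are among the 34, which therefore overstate how stable the results are. The count of detected members was 9 for any RPKM above 0, 7 at an RPKM of 5, and 8 by RPM and by RPKM rescaled to a sum of 1000000. All 10 members kept their place in the order by RPM. The share of the summed level held by the members was 1.09% by RPM and 3.53% without ribosomal protein genes, against 3.45%. RPM leaves out the division by length, and the members, 392 to 719 bases long, ranked lower on it among all genes. S100a11 ranked 21, S100a6 26, S100a10 135, S100a1 1072, S100a9 3803, S100a13 4318, S100a8 6287 and S100a4 9592. With annotated lengths not adjusted to the table, an alternative chosen after seeing the data, the lowest possible share of S100a1 reads in the 2 deepest libraries was 59.3% and the highest of S100a10 44.5%, each on the same side of 51.8%. The lowest fold for S100a1 was then 1.36, against 2.43, and the highest shares of S100a8 and S100a9 moved below 51.8%, to 34.2% and 46.7%. Leaving out a replicate was not run, and no paired analysis was possible because the columns name no sample and there is 1 group. Depth limits S100a5 and S100a3, at 2 and 0 reads.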

Other observations

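The genes between the blocks of the chromosome 3 cluster include many for the cornified envelope of skin, such as those of the Lce and Sprr families. Of the 55 genes of the table between the blocks, 40 were listed at 0 and 2 reached an RPKM of 1, against 31.0% of all genes. The 2 were Sprr1a at 2.14 and Sprr2b at 1.12, both picked with their values seen. The 55 genes had 112 reads over the 6 libraries in all, against 83808 for the 10 S100 members on either side. Of 20 Lce genes, 0 reached an RPKM of 1, and of 15 Sprr genes 2 did.

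Some S100 genes outside the members had reads in few libraries. In the same kind of reconstruction, all 9 reads of S100a7a came from the library of 4343108 reads. The 10 reads of S100z came from 2 libraries, 6 from that of 2100580 reads and 4 from that of 4343108 reads. The 6 reads of S100b came from 4 libraries.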
